A study of Mus musculus with 35 samples.

Results

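Genes of the T cell receptor machinery, together with 3 genes known from gamma-delta T cells, were examined in RNA-seq libraries of mouse hematopoietic stem/progenitor cells (HSPCs) from bone marrow. The set holds 10 of the 11982 gene names with a value. Of these, 7 were listed for their function (Cd3d, Cd3e, Cd3g, Cd247, Lck, Zap70 and Lat), and 3 (Cd163l1, Blk and 5830411N06Rik) were chosen by their RPKM in these 4 libraries, as genes strongly raised in JMJD1B-/-, so their values are a description and were given no test. The libraries came from 2 wild-type (WT) and 2 JMJD1B-/- samples of the 129P2xC57BL/6J background. JMJD1B is a histone demethylase encoded by Kdm3b, and the knockout was made with a gene trap. The labels name no treatment beyond the gene trap, the study worked with mice of both sexes aged 20 to 40 weeks, and the age behind each library and the gate used to isolate the HSPCs are not given in the sources used here. The comparison asks how the absence of JMJD1B in these animals goes with the level of each transcript in the isolated cells. The ChIP-seq samples of the series were not analysed here.

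A T cell recognises antigen with a receptor made of an alpha and a beta chain or of a gamma and a delta chain, and neither pair signals alone. The CD3 gamma, delta and epsilon chains and the zeta chain (Cd247) carry the signal into the cell, where the kinase Lck phosphorylates them, the kinase ZAP-70 docks on them, and the adaptor LAT is phosphorylated in turn and gathers the downstream enzymes. A subset of gamma-delta T cells is set early in life to produce interleukin 17 (IL-17), and carries the scavenger receptors encoded by Cd163l1 (also named Scart1) and 5830411N06Rik (also named Scart2) as well as the Src family kinase Blk. Stem and progenitor cells of the bone marrow are not known for an assembled T cell receptor, and Lat is also a gene of platelets, megakaryocytes and mast cells.

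The sequence upstream of the start site is shown for 5 members, because the CD3 genes are neighbours on chromosome 9 and Cd163l1 and 5830411N06Rik lie near each other on chromosome 7. Each line holds the 250 bases before the annotated start, 5′ to 3′ on the strand of the gene, from RefSeq and assembly GRCm38.p6. That assembly differs from the mm9 build of the expression table, which was joined to it by gene name only. Capitals mark matches, on either strand, to a short motif of each of 5 factor families that act in T cells or progenitors (nuclear receptors, RUNX, ETS, TCF and GATA), whose letters are given after the sequences.
Cd163l1, chr7:140218017-140218266, plus strand: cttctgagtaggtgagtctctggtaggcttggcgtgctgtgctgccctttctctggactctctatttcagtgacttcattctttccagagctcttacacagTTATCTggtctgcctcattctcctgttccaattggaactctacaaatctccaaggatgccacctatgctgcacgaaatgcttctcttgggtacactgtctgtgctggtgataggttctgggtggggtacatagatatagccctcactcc
5830411N06Rik, chr7:140247051-140247300, plus strand, the first of 3 annotated starts: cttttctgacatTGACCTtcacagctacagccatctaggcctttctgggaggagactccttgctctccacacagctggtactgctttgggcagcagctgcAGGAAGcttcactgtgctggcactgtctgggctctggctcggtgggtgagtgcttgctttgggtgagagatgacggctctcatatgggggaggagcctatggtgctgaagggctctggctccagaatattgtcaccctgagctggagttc
Cd3g, chr9:44980432-44980681, minus strand: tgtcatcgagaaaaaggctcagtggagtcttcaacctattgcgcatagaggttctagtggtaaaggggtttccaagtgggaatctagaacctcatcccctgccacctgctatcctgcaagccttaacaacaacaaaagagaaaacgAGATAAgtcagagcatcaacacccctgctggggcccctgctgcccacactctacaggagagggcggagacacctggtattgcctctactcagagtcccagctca
Cd3d, chr9:44981536-44981785, plus strand: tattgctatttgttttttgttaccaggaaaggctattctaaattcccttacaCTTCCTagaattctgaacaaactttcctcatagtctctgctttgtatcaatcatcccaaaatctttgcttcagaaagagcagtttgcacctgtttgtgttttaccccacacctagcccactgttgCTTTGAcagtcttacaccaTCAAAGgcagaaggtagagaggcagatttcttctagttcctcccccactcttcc
Cd3e, chr9:45009612-45009861, minus strand: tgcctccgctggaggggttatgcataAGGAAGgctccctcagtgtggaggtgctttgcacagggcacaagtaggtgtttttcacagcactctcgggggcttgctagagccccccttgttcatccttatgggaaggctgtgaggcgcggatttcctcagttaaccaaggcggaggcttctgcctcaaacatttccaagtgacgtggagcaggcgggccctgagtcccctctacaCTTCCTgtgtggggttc

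No motif stood in all 5 windows. A nuclear receptor half-site stood in the window of 5830411N06Rik, and in no other of the windows searched, 238 to 233 bases before its start. Cd163l1 and Cd3g each had a single GATA match, 149 to 144 and 104 to 99 bases before the start. Cd3d had a pair of TCF matches and an ETS match, and Cd3e had ETS matches 224 to 219 and 17 to 12 bases before its start. Such matches are common. Over 27025 promoters of the same length, the nuclear receptor half-site searched, AGGTCA, stood in 13.8% on either strand. The motif taken for RUNX factors was TGTGGT, and 14.2% of the promoters held it. For ETS factors the letters were AGGAAG, present in 29.2% of the promoters. The TCF motif, CTTTGA, was present in 14% of them, and the GATA motif, AGATAA, in 10.3%. No match overlapped another in the windows shown. Sequence was found for 9 of the 10 members, and the windows of Cd247, Lck, Zap70 and Lat each held at least 1 ETS match.

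Depth differed between the libraries. It was estimated at 17500000 and 24600000 reads for WT replicates 1 and 2 and at 6100000 and 21000000 reads for JMJD1B-/- replicates 1 and 2. On a transcript of 1 kb, 3 reads are then worth 0.171, 0.122, 0.491 and 0.143 RPKM (reads per kilobase of transcript, scaled to the size of the library), with counting error only. The table lists a gene only where some library reaches 1 RPKM. Because of this, the 5 members that stayed under 1 RPKM in both WT libraries (Cd3d, Cd3g, Cd247, Blk and 5830411N06Rik) could be listed only through a higher value in JMJD1B-/-, and a count of raised members carries no support by itself. Kdm3b itself fell, from 31.0 and 24.3 RPKM in WT to 4.00 and 4.63 RPKM in JMJD1B-/- (log2 fold change −2.65, limma adjusted p = 0.0314). The progenitor genes Kit (51.6 to 92.7 RPKM), Myb (137 to 211 RPKM) and Lmo2 (118 to 158 RPKM) were high in all 4 libraries, and Ly6a, the gene of the stem cell antigen Sca-1, was low (0.629 to 2.96 RPKM). Of the 19 stem and progenitor genes, 8 were called lower and none higher, against 6.33% and 3.81% of all genes tested, and 11 were lower in both knockout libraries, against 22.7% of all genes, among them Cd34, at 42.9 and 43.5 RPKM in WT and 20.9 and 11.7 RPKM in JMJD1B-/-. Xist was at 332 RPKM in WT replicate 2 and no higher than 0.051 RPKM in the other libraries, so the sexes were not balanced over the genotypes.

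**Figure D1:**
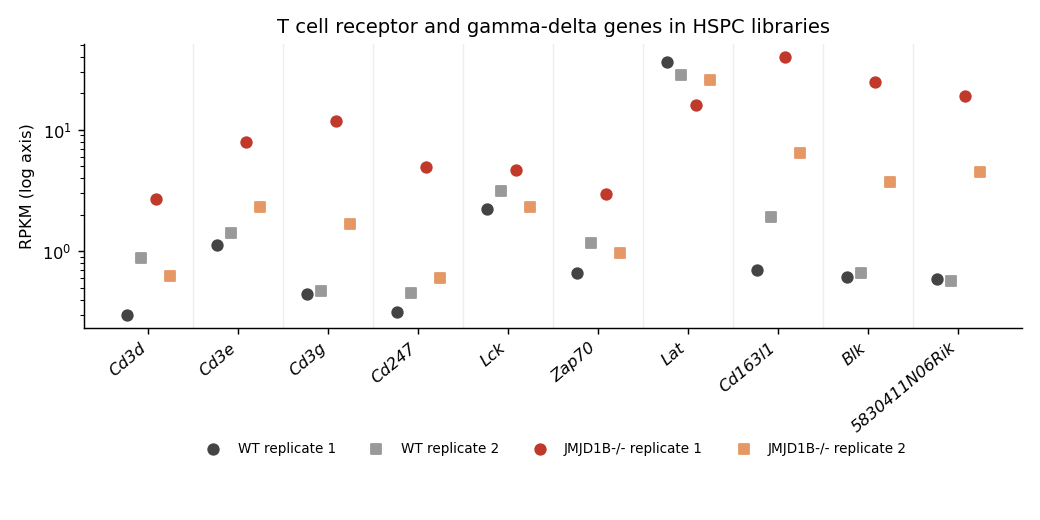
RPKM of the 10 genes (log axis) in each of the 4 libraries, with WT in grey tones and JMJD1B-/- in red and orange. JMJD1B-/- replicate 1 (red circles) was the highest library for 9 of the 10 genes, and Lat, the exception, was lowest there at 16.0 RPKM.

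The 3 chosen genes stood above WT in both knockout libraries. Cd163l1 was at 0.707 and 1.92 RPKM in WT and at 39.8 and 6.40 RPKM in JMJD1B-/- replicates 1 and 2. Blk was at 0.613 and 0.668 RPKM in WT and at 24.6 and 3.71 RPKM in JMJD1B-/-. For 5830411N06Rik the WT values were 0.591 and 0.567 RPKM and the JMJD1B-/- values 18.9 and 4.46 RPKM. In each case the groups did not overlap, and the first knockout library was far higher than the second.

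Relative to the WT mean, JMJD1B-/- replicate 1 was 30.4-fold higher for Cd163l1, 38.4-fold for Blk and 32.7-fold for 5830411N06Rik. In JMJD1B-/- replicate 2 the same ratios were 4.88, 5.79 and 7.71. The fitted log2 fold changes on the log2(RPKM + 0.1) scale were 3.66, 3.71 and 3.78, and without JMJD1B-/- replicate 1 they were 2.35, 2.36 and 2.75. The genes ranked from low to upper ranges within a library. Cd163l1 passed 3.66% and 14.7% of all gene names in the WT libraries but 88.5% and 36.7% in the JMJD1B-/- libraries, and Blk passed 3.20% and 3.89% against 78.8% and 26%. The other gene, 5830411N06Rik, went from 3.08% and 3.16% to 71.6% and 29.3%. Cd163l1 and 5830411N06Rik encode related proteins, and whether reads were shared between them was not tested. Their ratio was 1.20 and 3.38 in WT and 2.10 and 1.43 in JMJD1B-/-.

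Of the receptor's 4 signalling chains, Cd3g and Cd3e were called higher. Cd3g (CD3 gamma) was at 0.444 and 0.474 RPKM in WT and at 11.7 and 1.66 RPKM in JMJD1B-/- replicates 1 and 2. Cd3e (CD3 epsilon) was at 1.13 and 1.40 RPKM in WT and at 7.98 and 2.32 RPKM in JMJD1B-/-. Neither had overlapping groups. Since Cd3g is listed only through its JMJD1B-/- values, its direction is set by the listing, and its p below is no support for that direction.

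For Cd3g the log2 fold change was 3.03 ± 0.87 (SE), with an unadjusted p of 0.00937 and an adjusted p of 0.341 by limma. For Cd3e it was 1.70 ± 0.60, with an unadjusted p of 0.0246 and an adjusted p of 0.430 by limma. A call here means an unadjusted p under 0.05, and neither difference passed after adjustment over the 11863 genes tested. Without JMJD1B-/- replicate 1 the log2 fold change of Cd3g was 1.66 (limma unadjusted p = 0.062) and that of Cd3e 0.83 (limma unadjusted p = 0.139). The call of Cd3e was also lost without WT replicate 1 (limma unadjusted p = 0.101) and without WT replicate 2 (limma unadjusted p = 0.066).

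Cd3d (CD3 delta) and Cd247 (the zeta chain) did not pass. Cd3d was at 0.300 and 0.884 RPKM in WT and at 2.70 and 0.621 RPKM in JMJD1B-/- (log2 fold change 1.18 ± 0.91, limma adjusted p = 0.687). Only JMJD1B-/- replicate 1 was outside the WT values of Cd3d. Cd247 was at 0.315 and 0.449 RPKM in WT and at 4.90 and 0.603 RPKM in JMJD1B-/- (log2 fold change 1.97 ± 1.00, limma adjusted p = 0.564). Its groups were apart, by a small margin in the second knockout library. Without JMJD1B-/- replicate 2 both were past the unadjusted threshold, at log2 fold changes of 2.16 for Cd3d and 3.39 for Cd247.

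The proportions within CD3 are given as a description. Summed over Cd3g, Cd3d and Cd3e, CD3 transcripts came to 1.87 and 2.76 RPKM in WT and 22.4 and 4.60 RPKM in JMJD1B-/-. Cd3g made up 23.7% and 17.2% of that sum in WT and 52.3% and 36.1% in JMJD1B-/-, while Cd3d was 16.0% and 32.0% in WT and 12.1% and 13.5% in JMJD1B-/-. Cd3e was 60.3% and 50.8% in WT and 35.6% and 50.4% in JMJD1B-/-, so that its share was close to equal in the second library of each genotype. The share of Cd3g was higher in both knockout libraries, a direction that its listing through JMJD1B-/- favours. The WT levels of Cd3d and Cd3g are low for the depth, and the shares were not tested.

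The kinases Lck and Zap70 did not pass, and the adaptor Lat went the other way. Lck was at 2.25 and 3.16 RPKM in WT and at 4.65 and 2.32 RPKM in JMJD1B-/- (log2 fold change 0.29 ± 0.45, limma adjusted p = 0.858). Zap70 was at 0.667 and 1.17 RPKM in WT and at 2.98 and 0.964 RPKM in JMJD1B-/- (log2 fold change 0.88 ± 0.70, limma adjusted p = 0.702). For both, the second knockout library lay within the WT values. The sign for Lck turned without JMJD1B-/- replicate 1, to a log2 fold change of −0.19. Zap70 was past the unadjusted threshold without JMJD1B-/- replicate 2, at 1.64.

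Lat was the most abundant member in WT, at 35.8 and 28.1 RPKM, and was at 16.0 and 25.7 RPKM in JMJD1B-/-. Both knockout libraries lay below both WT libraries. Of 9 megakaryocyte genes, 5 were called lower and none higher, against 6.33% and 3.81% of all genes, and 4 did not pass. Their sum was 719 and 657 RPKM in WT and 282 and 408 RPKM in JMJD1B-/-, so that it too was lowest in replicate 1. The part of these cells in the level of Lat was not tested. The log2 fold change of Lat was −0.64 ± 0.27 (limma unadjusted p = 0.0468, adjusted p = 0.488). This call was lost on leaving out WT replicate 1 (−0.47), WT replicate 2 (−0.82) or JMJD1B-/- replicate 1 (−0.30). The ratio of Lat to Lck was 15.9 and 8.89 in WT, and 3.44 and 11.1 in JMJD1B-/- replicates 1 and 2. In the WT libraries, with levels per length, the order of the 7 signalling genes ran from Lat through Lck and Cd3e to Zap70, Cd3d, Cd3g and Cd247, and from Cd3e on the values of each gene overlapped those of the next.

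In all, 2 of the 7 signalling genes were called higher and 1 lower. Of all genes tested, 3.81% were called higher and 6.33% lower, and 5 genes (0.0421%) passed after adjustment. With 2 samples a genotype, an exact permutation test of a single gene cannot give a two-sided p below 0.333. Without overlap of the groups, Cd3e, Cd3g and Cd247 were higher in both knockout libraries, as were 20.1% of all genes, and Lat was lower in both, as were 22.7% of all genes. At least 2-fold above the higher WT library were 5 of the 7 genes in JMJD1B-/- replicate 1, against 2.82% of all genes, and 1 gene, Cd3g, in JMJD1B-/- replicate 2, against 1.33% of all genes. Cd3d, Cd3g and Cd247 are listed only through a JMJD1B-/- value, which favours their part in the counts of higher genes. These counts are therefore no support for a rise by themselves.

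**Figure D2:**
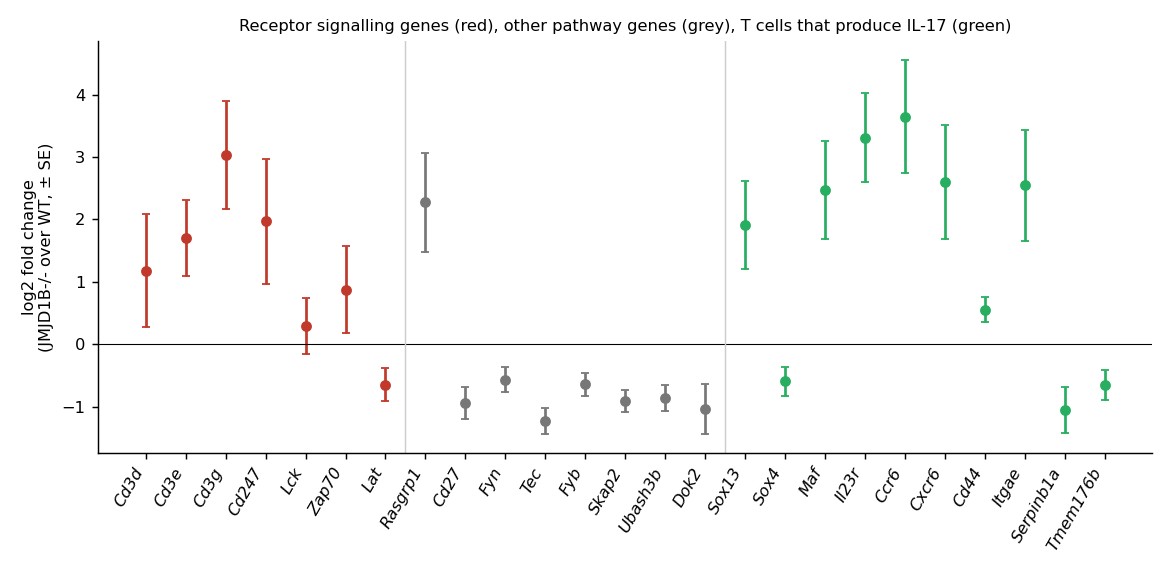
Log2 fold change (JMJD1B-/- over WT, on log2(RPKM + 0.1)) with its SE from limma, for the 7 receptor signalling genes and for called genes of the wider receptor pathway (grey) and of IL-17 producing T cells (green). The errors of Cd3g (3.03 ± 0.87) and Il23r (3.31 ± 0.71) are far wider than that of Skap2 (−0.91 ± 0.17).

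Relatives of the members outside the T cell receptor were compared next. Blk and Lck belong to the Src family of kinases. The family's most abundant members in these cells were Lyn (33.6 and 33.3 RPKM in WT, 27.8 and 24.4 RPKM in JMJD1B-/-) and Fyn (21.3 and 21.5 RPKM in WT, 15.8 and 13.2 RPKM in JMJD1B-/-). Blk was the lowest of the 7 Src family kinases plotted in both WT libraries, and in JMJD1B-/- replicate 1 it exceeded Fyn. Fyn (−0.57 ± 0.20, limma adjusted p = 0.433) and Src (−0.93 ± 0.32, limma adjusted p = 0.425) were called lower. Both calls were lost without WT replicate 1 (−0.57 for Fyn, −0.80 for Src) and without WT replicate 2 (−0.56 and −1.07), and that of Fyn also without JMJD1B-/- replicate 2 (−0.44).

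Zap70 has a single close relative, Syk, which acts downstream of B cell and Fc receptors. Syk was at 57.9 and 45.3 RPKM in WT and at 32.4 and 36.7 RPKM in JMJD1B-/- (log2 fold change −0.57 ± 0.20, limma unadjusted p = 0.0232, adjusted p = 0.426). Fcer1g, the Fc receptor gamma chain and a relative of the zeta chain, was at 25.9 and 19.9 RPKM in WT and at 16.5 and 3.97 RPKM in JMJD1B-/- (−1.47 ± 0.58, limma unadjusted p = 0.0362, adjusted p = 0.469). Lat2, an adaptor related to LAT in B cells and myeloid cells, was at 29.1 and 22.8 RPKM in WT and at 17.0 and 11 RPKM in JMJD1B-/- (−0.91 ± 0.27, limma unadjusted p = 0.0103, adjusted p = 0.348). All 3 were lower in both knockout libraries. Syk stayed well above Zap70 in each library, the smallest gap being 32.4 against 2.98 RPKM in JMJD1B-/- replicate 1. The 3 calls were lost without WT replicate 1, at −0.39 for Syk, −1.28 for Fcer1g and −0.73 for Lat2, and the call of Fcer1g also without WT replicate 2 (−1.66) or JMJD1B-/- replicate 2 (−0.46).

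Other genes of scavenger receptor cysteine-rich proteins, the family of Cd163l1 and 5830411N06Rik, had values for few members. Lgals3bp was at 15.0 and 20.6 RPKM in WT and at 24.4 and 32.0 RPKM in JMJD1B-/- (log2 fold change 0.66 ± 0.24, limma unadjusted p = 0.0278, adjusted p = 0.435). Cd163, the macrophage haemoglobin scavenger receptor, was at 0.710 and 0.732 RPKM in WT and at 1.05 and 0.265 RPKM in JMJD1B-/-. Its groups overlapped, unlike those of Cd163l1. The call of Lgals3bp was lost without WT replicate 1 (0.43) or JMJD1B-/- replicate 2 (0.47).

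**Figure D3:**
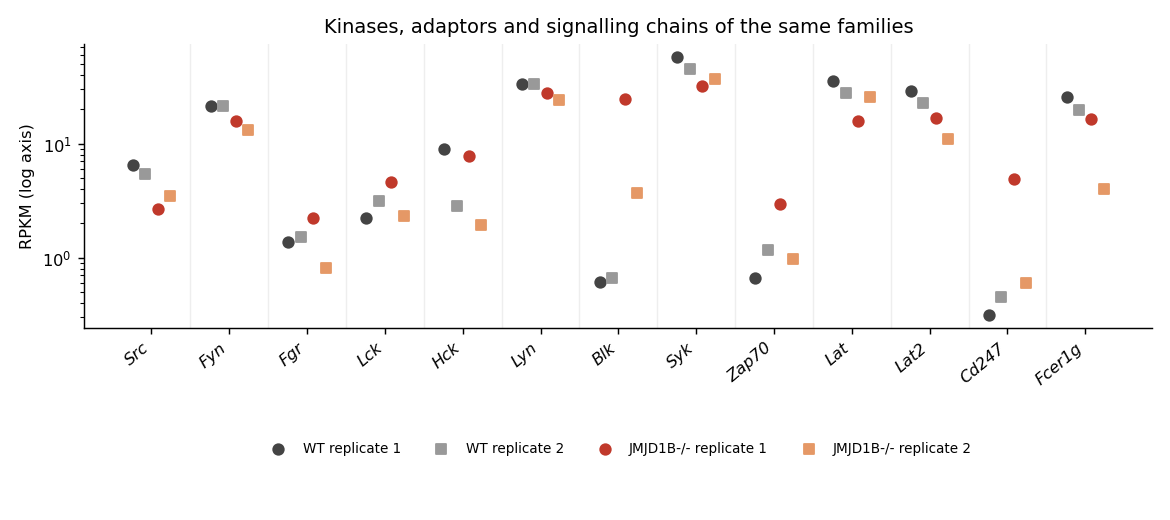
RPKM (log axis) in each library for Src family kinases (Src to Blk), Syk and Zap70, the adaptors Lat and Lat2, and the signalling chains Cd247 and Fcer1g. Syk, Lat2 and Fcer1g lie lower in both JMJD1B-/- libraries, while Blk lies higher in both, at 24.6 and 3.71 RPKM.

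The rest of the receptor pathway was read from a list of 60 genes of coreceptors, kinases, adaptors, downstream enzymes and inhibitors, chosen for function with earlier results of these data known. Of these, 53 were tested, 1 was called higher, against 3.81% of all genes, 7 were called lower, against 6.33% of all genes, and 45 did not pass, with none past adjustment. The median log2 fold change was −0.21, against −0.025 over all genes tested. Of the 53 genes, 20 were lower in both knockout libraries, against 22.7% of all genes, and 4 were higher in both, against 20.1%. The list includes 6 genes that stayed under 1 RPKM in both WT libraries.

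Rasgrp1, the Ras exchange factor of T cells, was the gene called higher. It was at 0.609 and 1.41 RPKM in WT and at 11.4 and 2.08 RPKM in JMJD1B-/- (log2 fold change 2.27 ± 0.80, limma unadjusted p = 0.0233, adjusted p = 0.426). Both knockout libraries were above both WT libraries, as for Cd3g and Cd3e. Leaving out JMJD1B-/- replicate 1 gave 1.08 and leaving out WT replicate 1 gave 1.73, and the call was lost in each case.

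Among kinases the call of Tec, a non-receptor tyrosine kinase used by many blood cells, rested on 36.9 and 32.1 RPKM in WT and 16.4 and 13.0 RPKM in JMJD1B-/- (log2 fold change −1.23 ± 0.21, limma unadjusted p = 0.000527, adjusted p = 0.155). The costimulatory receptor Cd27, which also marks progenitors, went from 9.95 and 8.76 RPKM to 4.66 and 4.96 RPKM (−0.94 ± 0.26, limma adjusted p = 0.320). In Tec and Cd27, the knockout libraries were close to one another and apart from WT, in contrast to the receptor chains.

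Of the adaptors, Skap2 fell from 54.1 and 51.4 RPKM to 27.3 and 28.7 RPKM (−0.91 ± 0.17, limma unadjusted p = 0.00102, adjusted p = 0.184). Fyb, which encodes an adaptor bound by the SKAP proteins, went from 75.8 and 75.3 RPKM to 54.3 and 43.1 RPKM (−0.64 ± 0.19, limma adjusted p = 0.348). Skap1, the T cell counterpart of Skap2, was at 2.10 and 1.31 RPKM in WT and at 5.30 and 0.945 RPKM in JMJD1B-/- (0.43 ± 0.77, limma adjusted p = 0.882). Skap2 and Fyb were thus lower in both knockout libraries, and Skap1 was split, with replicate 1 above and replicate 2 below WT, and its sign turned without replicate 1, to −0.75. Fyn, described above, belongs to the same list.

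Inhibitors with a call were Ubash3b, a phosphatase that acts on ZAP-70 and Syk, and the docking protein Dok2. Ubash3b went from 16.8 and 17.8 RPKM to 8.95 and 10.1 RPKM (−0.86 ± 0.21, limma adjusted p = 0.270). Dok2 went from 35.9 and 18.5 RPKM to 17.5 and 9.04 RPKM (−1.03 ± 0.40, limma adjusted p = 0.459), with the groups just apart. Of the 7 genes called lower, Tec and Skap2 kept the call whichever library was left out. It was lost without WT replicate 1 for Cd27 (−0.85), Fyb (−0.64) and Dok2 (−0.56), without WT replicate 2 for Ubash3b (−0.82) and Fyb (−0.65), and without JMJD1B-/- replicate 2 for Dok2 (−0.56). By the mean over the 4 libraries, the most abundant genes of the list beside Fyb were Dgkz, a diacylglycerol kinase, and Csk, the kinase that restrains Lck. Neither was called, with Dgkz at 81.9 and 66.9 RPKM in WT and 55.5 and 76.2 RPKM in JMJD1B-/-, and Csk at 52.0 and 45.5 RPKM in WT and 46.7 and 71.1 RPKM in JMJD1B-/-.

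The coreceptor genes Cd8a and Cd8b1 and the costimulatory receptor gene Cd28 were low. Cd8a was at 0.164 and 0.386 RPKM in WT and at 2.03 and 0.162 RPKM in JMJD1B-/-. Cd8b1 was at 0.583 and 0.247 RPKM in WT and at 2.14 and 0.199 RPKM in JMJD1B-/-. Cd28 was at 0.233 and 0.753 RPKM in WT and at 1.59 and 0.0991 RPKM in JMJD1B-/-. All 3 were highest in JMJD1B-/- replicate 1 and lowest in JMJD1B-/- replicate 2, for Cd8a by a very small margin. Cd3g, Cd3e and Rasgrp1 were above WT in both knockout libraries, and that contrast was not tested. The lower values of Cd8a, Cd8b1 and Cd28 are those of few reads.

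Genes known from T cells that produce IL-17 were taken from a list of 42 genes beyond the members, made with the rise of the members known, so it is not independent of them. Of these, 29 had a value and 27 were tested. Called higher were 8, against 3.81% of all genes, called lower 3, against 6.33%, and 16 did not pass, with none past adjustment. The median log2 fold change was 0.73, against −0.025 over all genes tested. Of the 29 genes, 9 were under 1 RPKM in both WT libraries, and 4 of these are among the 8 called higher. Such genes are listed only through a higher value in JMJD1B-/-, so the listing sets their direction and the count higher is no support for one. The 8 T cell receptor gamma and delta genes of the list had no value under the names searched, so the receptor chains that define these cells could not be looked at. Without JMJD1B-/- replicate 1, 3 of 24 genes were called higher and 9 lower, against 11.6% and 11.5% of all genes tested in that fit, with Il23r and Ccr6 among the higher ones.

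Among transcription factors, Maf, which acts in IL-17 producing cells, was at 0.800 and 1.16 RPKM in WT and at 14.3 and 2.32 RPKM in JMJD1B-/- (2.47 ± 0.78, limma adjusted p = 0.389). Sox13, a factor of the gamma-delta lineage, was at 1.43 and 0.854 RPKM in WT and at 9.37 and 2.08 RPKM in JMJD1B-/- (1.91 ± 0.70, limma adjusted p = 0.438). The groups were apart for both, with the same order of the knockout libraries as in the raised members. Sox4, which progenitors also express, went down, from 19.9 and 14.7 RPKM to 10.9 and 11.8 RPKM (−0.59 ± 0.23, limma adjusted p = 0.474, and −0.38 without WT replicate 1, where the call was lost).

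Of 20 receptor and other genes of the list tested, 5 were called higher, against 3.81% of all genes, 2 were called lower, against 6.33%, and 13 did not pass. Of the 5, 3 were under 1 RPKM in both WT libraries and so listed only through JMJD1B-/-. Il23r, a subunit of the receptor for interleukin 23, which sustains IL-17 production, was at 0.413 and 0.514 RPKM in WT and at 11.2 and 2.65 RPKM in JMJD1B-/- (3.31 ± 0.71, limma unadjusted p = 0.00199, adjusted p = 0.211). Ccr6, a chemokine receptor, was at 0.0548 and 0.312 RPKM in WT and at 5.69 and 1.62 RPKM in JMJD1B-/- (3.65 ± 0.91, limma adjusted p = 0.270). The WT values of Ccr6 are near or under the level of a few reads, which makes its fold change imprecise.

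The chemokine receptor Cxcr6 was at 1.18 and 1.37 RPKM in WT and at 25.6 and 2.59 RPKM in JMJD1B-/- (2.60 ± 0.91, limma adjusted p = 0.426). The integrin Itgae was at 0.306 and 0.106 RPKM in WT and at 2.31 and 1.08 RPKM in JMJD1B-/- (2.55 ± 0.89, limma adjusted p = 0.425). The adhesion receptor Cd44, widely used by blood cells, was at 26.6 and 30.3 RPKM in WT and at 46.5 and 37.2 RPKM in JMJD1B-/- (0.55 ± 0.20, limma adjusted p = 0.433). All 3 were higher in both knockout libraries. The calls of Cxcr6, Cd44, Maf and Sox13 were lost without JMJD1B-/- replicate 1, at log2 fold changes of 0.97, 0.39, 1.19 and 0.86. Some were lost without WT replicate 1 (Cxcr6 at 2.50, Cd44 at 0.46 and Maf at 2.23) or WT replicate 2 (Cxcr6 at 2.70, Cd44 at 0.65, Sox13 at 1.57 and Itgae at 2.06). On leaving out each library in turn, the log2 fold change was 2.29 to 4.33 for Il23r and 2.77 to 4.52 for Ccr6. Both genes are listed only through JMJD1B-/-, so this is no support for their direction.

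Called lower were Serpinb1a, a protease inhibitor gene of neutrophil precursors and IL-17 producing cells, and Tmem176b, a membrane protein gene. Serpinb1a was at 28.2 and 23.5 RPKM in WT and at 18.6 and 8.20 RPKM in JMJD1B-/- (−1.05 ± 0.37, limma adjusted p = 0.425). Tmem176b was at 11.9 and 10.6 RPKM in WT and at 6.52 and 7.72 RPKM in JMJD1B-/- (−0.66 ± 0.24, limma adjusted p = 0.438). Both calls were lost without WT replicate 1 (−0.92 and −0.57) and without WT replicate 2 (−1.19 and −0.74), and that of Serpinb1a without JMJD1B-/- replicate 2 (−0.47). The most abundant genes of the list by the mean over the 4 libraries, Ccr2, Cd44 and S100a4, did not move together, as Ccr2 was at 36.5 and 57.0 RPKM in WT and 46.7 and 8.21 RPKM in JMJD1B-/-, and S100a4 at 13.1 and 20.4 RPKM in WT and 77.3 and 9.42 RPKM in JMJD1B-/-. Of the 3 cytokine genes of the list, 1 had a value, and Il17a and Il17f, the genes of IL-17 itself, had none. Il22, the cytokine gene with a value, was at 0 in each WT library and at 1.5 and 0.0436 RPKM in JMJD1B-/-. It is thus listed only through JMJD1B-/- and was not tested.

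In bulk RNA, a larger share of cells of a type and more RNA per cell cannot be told apart. Other lymphoid lists were therefore set beside the members. Of 14 further T cell genes tested, 1 (Bcl11b) was called higher and none lower, against 3.81% and 6.33% of all genes. It is listed only through its JMJD1B-/- values, so its p is no support for its direction. Bcl11b, a factor of T lineage commitment, was at 0.555 and 0.647 RPKM in WT and at 5.23 and 1.17 RPKM in JMJD1B-/- (1.89 ± 0.77, limma unadjusted p = 0.0412, adjusted p = 0.477), and the call was lost without JMJD1B-/- replicate 1 (0.86), WT replicate 1 (1.80) or WT replicate 2 (1.99). Of 23 genes of NK cells and innate lymphoid cells, none was called higher and 1 was called lower, against the same shares, namely Nkg7, a granule protein gene, at 14 and 15.3 RPKM in WT and 7.19 and 4.84 RPKM in JMJD1B-/- (−1.30 ± 0.27, limma adjusted p = 0.206). These counts are limma calls at an unadjusted p under 0.05, and none passed after adjustment. Of the listed genes with a value, 6 of 15 T cell genes and 8 of 24 NK and innate lymphoid genes were under 1 RPKM in both WT libraries.

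The 2 knockout libraries differed in how far the lists reached. At least 2-fold above the higher WT library in JMJD1B-/- replicate 1 were 12 of the 14 T cell genes, 12 of the 23 NK and innate lymphoid genes and 15 of the 27 IL-17 genes, against 2.82% of all genes. In JMJD1B-/- replicate 2 the counts were 0 of 14, 0 of 23 and 7 of 27, against 1.33% of all genes, and both libraries together gave 7 of the 27 IL-17 genes, against 0.556% of all genes. The 3 raised members met the same limit in both libraries by their selection. Under 1 RPKM in both WT libraries were 6 of 15 T cell, 8 of 24 NK and innate lymphoid and 9 of 29 IL-17 genes with a value. Such genes are listed only through JMJD1B-/-, which favours these counts, so the excess over all genes is no support for a rise. The difference between these lists was not tested.

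**Figure D4:**
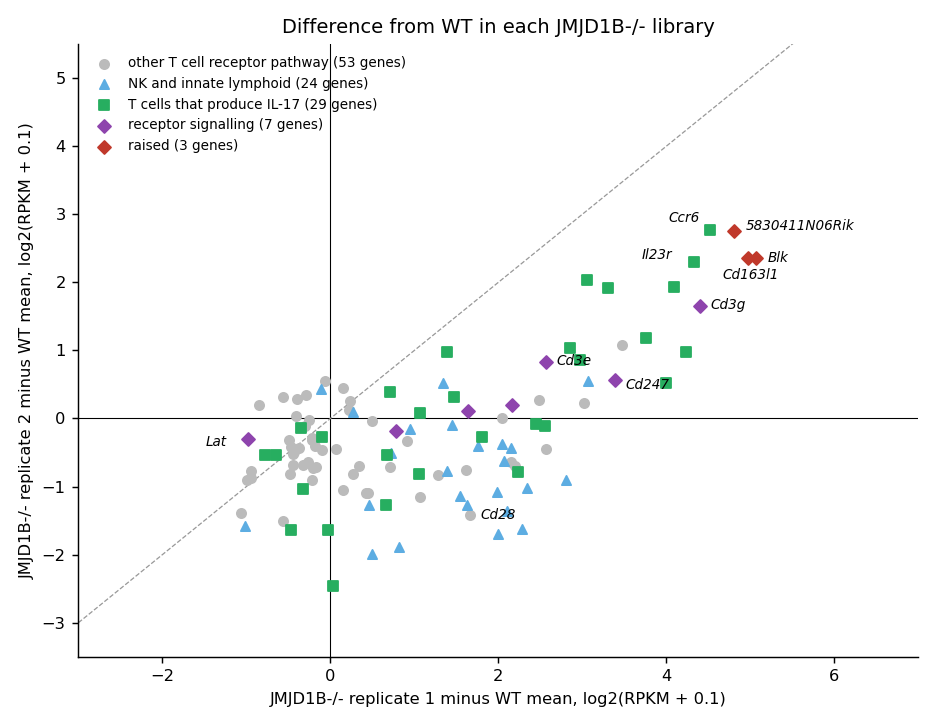
Difference of each JMJD1B-/- library from the WT mean in log2(RPKM + 0.1), replicate 1 on the x axis and replicate 2 on the y axis, for the members and 3 gene lists, with a dashed line where both are equal. The raised members lie far right and above 0 beside Ccr6 and Il23r, while many NK genes and Cd28 lie right of 0 and below 0.

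Single genes were split in replicate 2. Gimap4, the gene with the highest mean of the further T cell genes, was at 4.4 and 7.27 RPKM in WT and at 23.9 and 1.51 RPKM in JMJD1B-/-. Gimap3 was at 5.06 and 7.29 RPKM in WT and at 18.1 and 3.56 RPKM in JMJD1B-/-, and Ms4a4b at 1.63 and 2.54 RPKM in WT and 13.8 and 1.20 RPKM in JMJD1B-/-. Ncr1, an activating receptor of NK cells, was at 4.36 and 6.90 RPKM in WT and at 9.73 and 1.40 RPKM in JMJD1B-/-. Each of these was highest in the first knockout library and lowest in the second, while Tcf7 (1.43 and 1.48 RPKM in WT, 8.67 and 1.80 RPKM in JMJD1B-/-), a factor of early T cells, was above WT in both, as was Bcl11b. Thy1 was within the WT values in replicate 2, at 1.25 and 2.08 RPKM in WT and 9.04 and 1.97 RPKM in JMJD1B-/-. Il1rl1, the interleukin 33 receptor gene of mast cells and innate lymphoid cells, stayed between 10.6 and 15.6 RPKM in all 4 libraries.

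Summed levels moved with the members in replicate 1. The further T cell genes summed to 23.4 and 29.8 RPKM in WT and to 106 and 16.3 RPKM in JMJD1B-/-. The NK and innate lymphoid genes summed to 56.3 and 84.3 RPKM in WT and to 137 and 41.4 RPKM in JMJD1B-/-. The sums of the 3 raised members were 1.91 and 3.15 RPKM in WT and 83.3 and 14.6 RPKM in JMJD1B-/-. The IL-17 genes beyond the members summed to 196 and 217 RPKM in WT and to 408 and 137 RPKM in JMJD1B-/-. In JMJD1B-/- replicate 2, then, the further T cell, NK and IL-17 sums were all below both WT libraries. The sums of the raised members and of CD3 were above WT there, which their selection and the listing of Cd3g favour. Cd3d was within its WT values in that library. None of the T cell genes with a value was at 0 in any library, and 1 NK gene was at 0 in JMJD1B-/- replicate 2. The part of T or NK cells in the libraries was not tested.

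Blk is also a kinase of B cells, so B cell genes were read in the same way. Of 9 tested, none was called higher, against 3.81% of all genes, and 1 was called lower, against 6.33%. This was Cd79b, a B cell receptor chain, at 3.28 and 1.99 RPKM in WT and 1.22 and 0.631 RPKM in JMJD1B-/- (−1.43 ± 0.57, limma adjusted p = 0.475). Its call was lost without WT replicate 1 (−1.09), WT replicate 2 (−1.78) or JMJD1B-/- replicate 2 (−1.0). The B cell genes summed to 74.9 and 82.8 RPKM in WT and to 80.3 and 49.5 RPKM in JMJD1B-/-, mostly through Btk (31.0 to 46.8 RPKM) and Dntt (2.76 to 37.8 RPKM), which other cells also express. Of the 10 B cell genes with a value, 6 were highest in JMJD1B-/- replicate 1, against 16.6% of all genes tested, among them Bank1, at 0.525 and 0.154 RPKM in WT and 2.11 and 0.241 RPKM in JMJD1B-/-. Vpreb3 was the gene of the list at 0 in both WT libraries, and it was at 1.08 and 0 RPKM in JMJD1B-/-. The part of B cells in the level of Blk was not tested. The stem and progenitor genes summed to 747 and 716 RPKM in WT and to 538 and 708 RPKM in JMJD1B-/-, and late neutrophil genes to 23.4 and 9.56 RPKM in WT and to 70.5 and 31.7 RPKM in JMJD1B-/-. Retnlg made up most of the late neutrophil sum in replicate 1, at 7.10 and 0.266 RPKM in WT and 46.5 and 6.45 RPKM in JMJD1B-/-. Of 5 late neutrophil genes tested, 3 were called higher, against 3.81% of all genes, and 1 (Cxcr2) lower, against 6.33%. Erythroid genes summed to 726 and 1037 RPKM in WT and to 2085 and 3222 RPKM in JMJD1B-/-, a sum that was highest in replicate 2, unlike that of the members. Of the 11 erythroid genes, 10 were called higher, against 3.81% of all genes. The library with the highest values of the members, JMJD1B-/- replicate 1, thus also had the lowest depth and the lowest progenitor sum, and their part in the result was not tested.

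**Figure D5:**
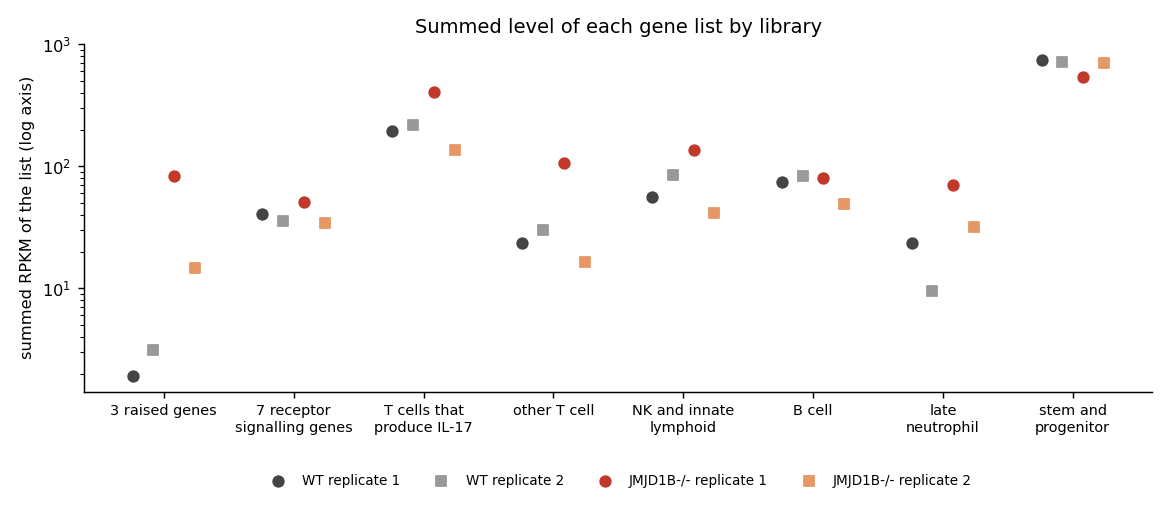
Summed RPKM (log axis) of each gene list in the 4 libraries. The 3 raised genes are above WT in both JMJD1B-/- libraries (83.3 and 14.6 RPKM). The further T cell genes, the NK genes and the IL-17 genes are above WT in replicate 1 and below it in replicate 2.

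The genes whose pattern over the 4 libraries was most like that of the raised members were sought among 11213 genes with a mean of at least 1 RPKM. Each profile of log2(RPKM + 0.1) was centred on its WT mean, and likeness was the Euclidean distance to the mean profile of Cd163l1, Blk and 5830411N06Rik. Among the 10 nearest were Il23r at a distance of 0.66, Ccr6 at 0.85, Miat at 0.94, Olfr60 at 1.14, Tjp1 at 1.37, Cxcr6 at 1.69, Maf at 1.76, Abi3bp at 1.83 and Podnl1 at 1.84. The members themselves lay at 0.30 (Blk), 0.47 (5830411N06Rik) and 0.62 (Cd163l1) from their own mean. Of these, Il23r, Ccr6, Cxcr6 and Maf are on the IL-17 list.

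The others come from elsewhere. Tjp1, a tight junction protein gene, was at 0.876 and 0.920 RPKM in WT and at 13.2 and 3.64 RPKM in JMJD1B-/-. Miat, a long noncoding RNA, was at 0.0326 and 0.130 RPKM in WT and at 4.34 and 0.437 RPKM in JMJD1B-/-. For the olfactory receptor gene Olfr60 the table gave 0 in WT, in each library, and 3.67 and 1.07 RPKM in JMJD1B-/-. All 3 had the first knockout library highest and the second next. They were ranked over 4 values that the members' own selection had used, so the ranking is a description with no test.

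Nearest to the mean profile of the CD3 and zeta chains were Bcl11b at 0.31, Acsbg1 at 0.41, Bcl2a1b at 0.49, Rasgrp1 at 0.59 and Cd2 at 0.62. Acsbg1, an acyl-CoA synthetase gene, was at 0.512 and 0.504 RPKM in WT and at 5.68 and 0.884 RPKM in JMJD1B-/-. Cd2, an adhesion receptor gene of T and NK cells, was at 0.714 and 1.24 RPKM in WT and at 8.39 and 1.12 RPKM in JMJD1B-/-. Some of these lay nearer to the mean than the chains did, with Cd3g at 1.56, Cd3d at 1.28, Cd3e at 0.58 and Cd247 at 0.37 from their mean.

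The members also differed in how unequal the knockout libraries were. JMJD1B-/- replicate 1 over replicate 2 was 8.12 for Cd247, 7.05 for Cd3g, 6.64 for Blk, 6.22 for Cd163l1, 4.35 for Cd3d, 4.24 for 5830411N06Rik, 3.44 for Cd3e, 3.09 for Zap70, 2.0 for Lck and 0.621 for Lat. The median of this ratio was 6.24 over the NK and innate lymphoid genes, 5.42 over the further T cell genes, 3.25 over the IL-17 genes and 0.882 over all genes tested. The ratios of the raised members were of the size of the lymphoid medians, and that of Lat was below the median of all genes. The ratios are descriptions of 2 libraries, with no test.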

How the data were processed

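HSPC RNA-seq was compared between 2 WT and 2 JMJD1B-/- libraries, grouped by their labels. The authors deposited a table of RPKM values with 1 added to each. The submitters' processing notes name Novoalign, TopHat2 and build mm9, and the annotation and counter are not given in the sources used here. The TruSeq kit does not mark strand, so a gene and an overlapping antisense gene cannot be told apart. Mature T cell receptor segments were not analysed here.

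The added 1 was subtracted to give RPKM, and 84 entries that share 42 names were averaged. Depth was estimated from ratios of low values that fall on whole numbers, and 32 genes gave the same depth, while the next best depth was given by 4. Reads were not recovered for all genes, so no count test was run. Genes with a mean of at least 0.5 RPKM (11863) entered limma (version 3.58.1, R 4.3.3) as log2(RPKM + 0.1) (trend, two-sided, Benjamini-Hochberg adjustment over all genes), and a call is an unadjusted p under 0.05. The script was tested on simulated data. A fold change on this scale understates the change of low genes. The study's methods state a two-tailed Student test in general, and a gene-by-gene test was an alternative, as were 2 other pseudocounts, 2 other filters, median-ratio scaling, quantile normalization, limma without the trend, a replicate term and leaving out each library. Whether the samples are separate animals is stated only as biological replicates, and p-values measure the spread between these samples.

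Named genes were all members, the called and the 3 most abundant genes of each list described, close relatives, the nearest patterns and Kdm3b; Olfr60, Tjp1, Miat, Acsbg1 and Cd2 were singled out of the nearest, and Cd8a, Cd8b1, Cd28, Skap1, Cd163, Vpreb3, Bank1, Tcf7, Thy1, Cd34, Kit, Ly6a and Il22 of the lists, after their values were seen. The members and lists were chosen with earlier results of these data known. Some genes that this rule names are not reported here, though they stay in the counts. Tables and figures used Python 3.11.15, numpy 2.4.6, pandas 2.3.3, scipy 1.17.1 and matplotlib 3.10.9.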

Additional observations from a re-analysis of the deposited data

How the results depend on the processing

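With 2 libraries a genotype, each library weighs on every count. Leaving out 1 library gave 127 to 1367 genes called higher (452 with all libraries) and 190 to 1777 called lower (751), and where a group was left with 1 library, limma took that library to vary like the other group. The same step gave 0 to 5 receptor signalling genes higher (2) and 0 to 1 lower (1), 0 to 12 pathway genes higher (1) and 3 to 21 lower (7), and 3 to 16 IL-17 genes higher (8) and 0 to 9 lower (3). Without JMJD1B-/- replicate 1, which has the lowest depth, 0 of 6 signalling genes were called higher and 0 lower, 21 of 48 pathway genes were lower (11.5% of all genes lower and 11.6% higher in that fit), and the log2 fold change of Lck turned to −0.19 (0.78 without JMJD1B-/- replicate 2). Without JMJD1B-/- replicate 2 the signalling genes called higher were 5 and the pathway genes 12 (6.15% of all genes higher in that fit). The gene-by-gene test called 0 signalling genes in each direction, 0 pathway genes higher, and 1 IL-17 gene in each direction (2.93% of all genes higher and 4.32% lower in that fit). limma without the trend called 0 signalling genes lower, 0 pathway genes higher and 1 IL-17 gene lower (2.92% of all genes higher and 6.47% lower in that fit). Quantile normalization moved the split of calls, with 51.6% lower against 62.4%, as did leaving out JMJD1B-/- replicate 1 (49.7%) or replicate 2 (70.8%) or WT replicate 2 (53.3%), and limma without the trend gave 68.9%. After adjustment, 5 genes passed with all libraries, 256 with the replicate block, 989 without JMJD1B-/- replicate 1, 547 without replicate 2 and 0 to 18 under the other settings. The cause of these changes was not tested. The replicate numbers are shared by the genotypes. Same-numbered libraries did not deviate together (r = −0.0543 over 11863 genes), but this correlation cannot exclude a pairing, and none was assumed. With the replicate block, 571 genes (4.81% of all tested) were called higher and 914 (7.7%) lower, 2 pathway genes higher and 5 IL-17 genes lower. Of 491 tested single-gene values over 38 genes and 13 alternatives, 389 stayed on their side of the threshold, 95 lost the call, 5 gained it and 2 turned in sign (Lck, and Skap1 at −0.75 against 1.62 without replicate 2, both without JMJD1B-/- replicate 1). The log2 fold changes of the raised members, which were not tested, stayed between 2.35 and 5.06 throughout. At 6100000 reads, values under 0.491 RPKM in JMJD1B-/- replicate 1 are not distinguishable from 0 on a transcript of 1 kb.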

Other observations

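Receptors for IL-17, the cytokine that the T cells described above are known for, were looked at after their values were seen. Il17rb, which encodes a receptor subunit for the related cytokine IL-25, was at 9.75 and 6.23 RPKM in the WT libraries and at 1.40 and 0.992 RPKM in the JMJD1B-/- libraries (log2 fold change −2.62, limma unadjusted p = 0.00026, adjusted p = 0.117). Both knockout libraries lay far below both WT libraries and close to one another, unlike those of Cd163l1 or Il23r. Il17ra, the shared subunit of these receptors, was at 43.6 and 38.0 RPKM in WT and at 30.5 and 40.7 RPKM in JMJD1B-/- (−0.21, limma adjusted p = 0.766), and its groups overlapped. Il17re, another receptor subunit of the family, was at 0.586 and 0.537 RPKM in WT and at 1.63 and 1.20 RPKM in JMJD1B-/- (1.18, limma adjusted p = 0.588), so that it did not pass although its groups did not overlap.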
